A study of Mus musculus with 6 samples.

Results

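The insulin-like growth factor (IGF) system was described here through 10 genes chosen by symbol: the ligand genes Igf1 and Igf2, the receptor genes Igf1r and Igf2r, and the binding protein genes Igfbp1 to Igfbp6. Of these, 9 were found among the 19176 rows of the expression table, and Igf2 was not analysed here. RNA sequencing had been performed on renal cortex of wild-type C57BL/6J mice on day 14 after unilateral renal ischemia-reperfusion injury (UIRI), in which the left renal pedicle was clamped for a period and then released. The 3 libraries of the UIRI group came from mice given daily intraperitoneal vehicle, which was ethanol in saline, and the 3 libraries of the UIRI + BA group came from mice given bruceine A (BA, spelled Brucine A in the sample labels) at 1 mg/kg each day. The mice were young adult males, and both groups had lost the right kidney the day before tissue was taken. All libraries were thus from injured kidneys, and the comparison was UIRI + BA (below, with BA) against UIRI (with vehicle). Values per library are given in the order of replicates 1, 2 and 3.

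IGF1 is a secreted growth factor made in many tissues under the influence of growth hormone, and it acts on a receptor tyrosine kinase, IGF1R, that signals through PI3K and AKT. IGF2R, the cation-independent mannose 6-phosphate receptor, takes up IGF2 for degradation and sorts lysosomal enzymes. The IGF binding proteins hold the ligands in the circulation and in the matrix, and they are cut by proteases such as PAPP-A, which frees the ligand. In kidney, the system is known for its part in growth, glomerular filtration and the response of tubules and interstitium to injury.

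Within the system, the ligand gene Igf1 and the binding protein gene Igfbp2 were lower in UIRI + BA than in UIRI, with no overlap between the libraries of the groups. These were 2 of the 9 members, beside 14.4% of all genes without overlap in either direction (6.96% lower), a count near that background. Igf1 differed by -0.46 and Igfbp2 by -0.62 on the log2 scale, that is by -27.5% and -35.2%. The receptor gene Igf1r leaned the other way, by 0.27. The members most abundant per length, Igfbp4, Igfbp3 and Igfbp5, differed by less than 0.1 on the log2 scale. With limma, an adjusted p below 0.05 was reached by 0 of the 9 members, beside 0.0% of all 19176 genes. Igf1 and Igfbp2, 2 of the 9 members, had an unadjusted p below 0.05, beside 10.3% of all genes (4.61% lower and 5.67% higher), which is a count near that background. The same count was 3 with DESeq2, where Igf1r joined them, beside 7.88% of all genes, and 2 with edgeR, beside 9.93%.

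The libraries held 16510720 to 38124164 reads on genes. The deepest was UIRI replicate 3, with 2.04 times the median depth of the rest. The tissue label was checked against marker genes. All 12 proximal tubule markers were present, with a summed normalized count of 46425 to 57302 in UIRI and 59327 to 111672 in UIRI + BA. Of 4 adipose markers 1 was in the table, as was 1 of 3 adrenal markers and 1 of 3 skeletal muscle markers. All 8 urothelium markers were in the table, and their sum was uneven between libraries. It ran from 175 to 687 in UIRI and from 71.4 to 422 in UIRI + BA, with replicate 3 the highest in each group.

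Promoter sequence was taken from RefSeq (GRCm38.p6), where all 9 members had an entry, for members that leaned up or down with BA. It is shown to set the promoters of Igfbp2 and Igfbp6, the binding protein genes with the lowest log2 differences, beside that of the receptor gene Igf1r. Each run gives the 250 bases before a RefSeq transcription start, in the direction of the gene, and all 3 genes lie on the plus strand. The Igfbp2 window is chr1:72824230-72824479, the Igfbp6 window is chr15:102143936-102144185 and the Igf1r window is chr7:67952007-67952256. None of these bases lies in an exon of its own gene in GENCODE release M21. Exons of other genes in these windows were not looked for. Capitals mark matches, on either strand, to GGGCGG (the GC box), TATAAA (the TATA box), CCAAT or TTCNNNGAA (the form bound by STAT5). The letters of none of these motifs overlapped another in these windows.
Igfbp2: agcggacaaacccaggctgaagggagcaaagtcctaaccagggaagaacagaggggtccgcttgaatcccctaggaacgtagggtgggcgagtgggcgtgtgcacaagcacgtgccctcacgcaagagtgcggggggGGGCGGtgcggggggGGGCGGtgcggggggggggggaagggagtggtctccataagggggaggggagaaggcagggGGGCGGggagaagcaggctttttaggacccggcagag
Igfbp6: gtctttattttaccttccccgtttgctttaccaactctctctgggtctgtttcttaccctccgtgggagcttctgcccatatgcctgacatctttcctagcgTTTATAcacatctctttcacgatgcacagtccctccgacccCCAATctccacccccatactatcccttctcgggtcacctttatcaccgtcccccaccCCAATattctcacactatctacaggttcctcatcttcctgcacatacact
Igf1r: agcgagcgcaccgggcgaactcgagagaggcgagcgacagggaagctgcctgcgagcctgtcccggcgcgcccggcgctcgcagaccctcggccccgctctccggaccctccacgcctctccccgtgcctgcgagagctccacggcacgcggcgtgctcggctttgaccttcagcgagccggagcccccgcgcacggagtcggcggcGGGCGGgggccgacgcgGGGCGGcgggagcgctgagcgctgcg

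The window shown for Igfbp2 held 3 matches to GGGCGG and that of Igf1r held 2, whereas that of Igfbp6 held 0. RefSeq gives Igfbp2 a second start, whose window at chr1:72825137-72825386 held 0 matches to GGGCGG at 56.4% GC, and the window of Igf2r held 3. The Igfbp6 window held 1 match to TATAAA and 2 to CCAAT. Over all 32851 RefSeq promoter windows of the same length, GGGCGG was found in 32.7%, TATAAA in 12.4%, CCAAT in 33.8% and TTCNNNGAA in 7.02%. TTCNNNGAA was absent from the windows of all 9 members. GC content of the windows shown was 67.2% for Igfbp2, 49.6% for Igfbp6 and 77.6% for Igf1r, and the median over all windows was 52.4%. The windows shown for Igfbp2 and Igfbp6 shared none of the motifs searched. For Igf1, the window of RefSeq lay wholly within an annotated exon and is not shown.

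**Figure D1:**
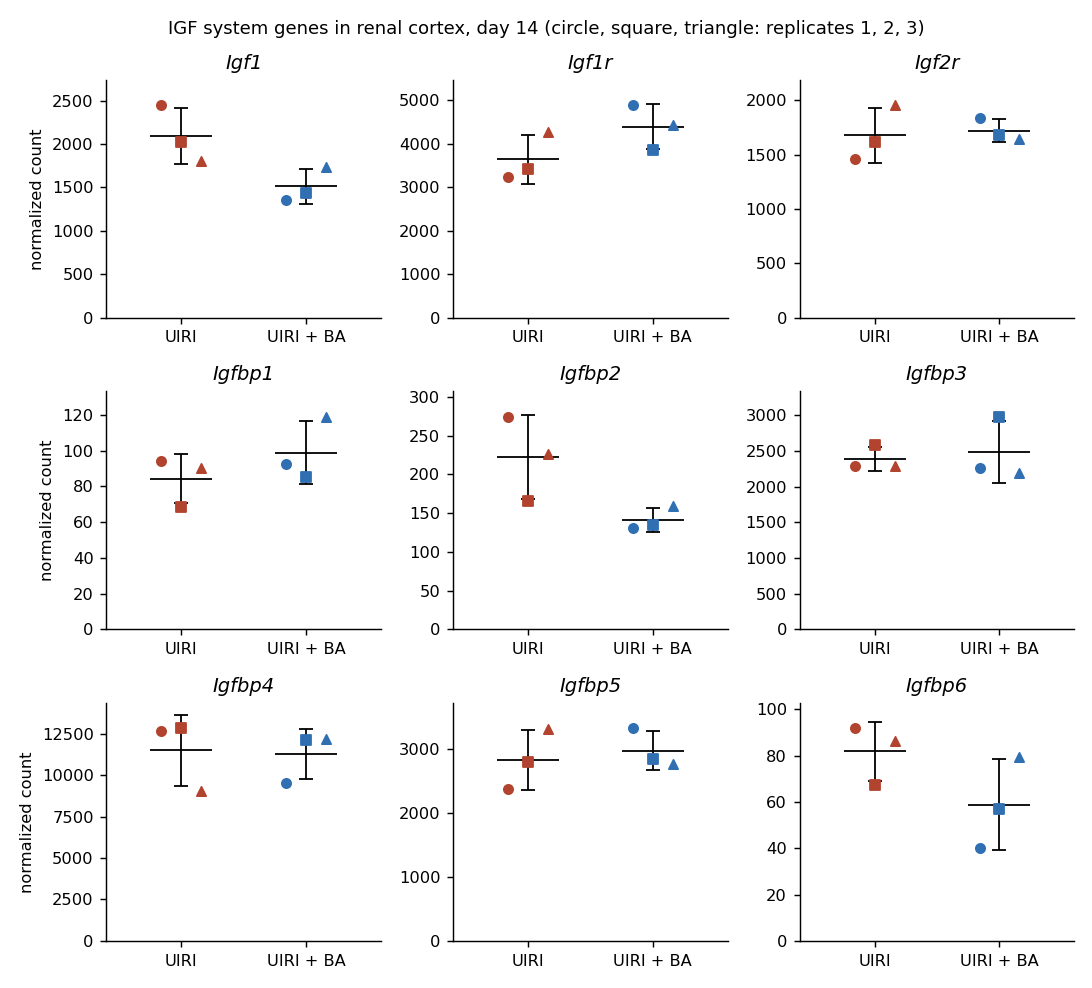
Normalized count (linear axes from 0) of the 9 members in each library of the UIRI group (red) and the UIRI + BA group (blue). Circles, squares and triangles stand for replicates 1, 2 and 3, and bars for the mean ± SD (n = 3). The groups are apart for Igf1 and Igfbp2, beside 14.4% of all genes, and overlap for the other 7 members.

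Igf1 encodes the ligand. In GENCODE release M21 (GRCm38) it lies on chromosome 10 from 87858265 to 87937042 on the plus strand, with 8 merged exons. Its normalized count, the number of reads divided by the size factor of the library, was 2447, 2023 and 1808 with vehicle and 1359, 1441 and 1739 with BA. All UIRI libraries were above all UIRI + BA libraries, with UIRI replicate 3 and UIRI + BA replicate 3 lying closest to each other. The group means were 2093 ± 325 (SD, n = 3) and 1513 ± 200.2 (SD, n = 3). This was a log2 fold change of -0.46 (standard error 0.13, 95% interval -0.75 to -0.17), with an adjusted p of 0.312 from limma. An exact two-sided permutation test gave p = 0.1, which is the smallest value that 3 against 3 libraries allow. Over all genes, 14.4% had groups that did not overlap, and 6.96% did so with lower values in UIRI + BA.

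Fits that lacked 1 library put the log2 fold change of Igf1 between -0.57 (no UIRI + BA replicate 3) and -0.35 (no UIRI replicate 1), and an unadjusted p below 0.05 was found in 6 of 6 such fits. Without UIRI replicate 3 its adjusted p was 0.0339 from limma, in a fit that gave an adjusted p below 0.05 to 5.02% of all genes and an unadjusted one to 25.2%. That fit gave 1 of the 9 members an adjusted p below 0.05 and 3 an unadjusted one, Igf1r among them. A replicate block gave 0 of the 9 members an adjusted p below 0.05, beside 0.0313% of all genes, and 3 an unadjusted one, beside 11.0%. DESeq2 on the recovered reads gave Igf1 an adjusted p of 0.0613 and edgeR one of 0.328. Over all alternatives the adjusted p of Igf1 ran from 0.0339 to 1.00.

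Igf1r encodes the signaling receptor and lies on chromosome 7 from 67952827 to 68233668. It read 3232, 3410 and 4270 with vehicle and 4882, 3848 and 4430 with BA. The UIRI + BA libraries tended to be higher, but UIRI replicate 3 stood above UIRI + BA replicate 2. On the log2 scale Igf1r differed by 0.27 (standard error 0.12, 95% interval -0.0045 to 0.55), with an adjusted p of 0.492 from limma. Leaving out UIRI replicate 3 gave 0.39, and leaving out the first library with BA gave 0.19.

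Igf2r encodes the scavenger receptor and lies on chromosome 17 from 12682406 to 12769664 on the minus strand. Its normalized counts were 1461, 1622 and 1956 with vehicle and 1842, 1678 and 1647 with BA. The UIRI + BA libraries all fell inside the range of UIRI. Its log2 fold change was 0.04 (95% interval -0.20 to 0.29), and its sign turned when replicate 1 of either group was left out.

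The receptor was also set against its ligand within each library, a ratio that no scaling between libraries can alter. The ratio of normalized counts of Igf1r to Igf1 was 1.32, 1.69 and 2.36 with vehicle and 3.59, 2.67 and 2.55 with BA. The UIRI + BA libraries were all above the UIRI libraries. The ratio was 1.67-fold higher with BA, a log2 difference of 0.74 (two-sided exact permutation, p = 0.1, as low as the design allows). This ratio was chosen after the values of both genes were seen.

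Igfbp2 encodes a binding protein that prefers IGF2 and is made by many epithelia. It lies on chromosome 1 from 72824503 to 72852474 on the plus strand, next to Igfbp5 on the minus strand (72857932 to 72874884). Its normalized counts were 274, 165 and 227 with vehicle and 130, 135 and 159 with BA. The groups did not overlap, although UIRI replicate 2 came within a few counts of UIRI + BA replicate 3. The means were 222 ± 54.6 with vehicle and 141 ± 15.3 with BA (SD, n = 3 each). The log2 fold change was -0.62 (standard error 0.19, 95% interval -1.05 to -0.20), with an adjusted p of 0.351 from limma and an exact permutation p of 0.1. Its lowest value with a library left out was -0.82 (no UIRI replicate 2) and its highest -0.46 (no UIRI replicate 1). Each of the 6 fits with a library left out gave an unadjusted p below 0.05. The adjusted p was 0.0988 with DESeq2 and 0.340 with edgeR, and it ran from 0.0988 to 1.00 over all alternatives. These values rested on 104 to 414 reads per library.

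Igfbp6 encodes another binding protein with a preference for IGF2 and lies on chromosome 15 from 102144362 to 102149511. It read 91.8, 67.5 and 86.5 with vehicle and 40.1, 57.1 and 79.3 with BA. UIRI + BA replicate 3 was inside the range of UIRI, and the other 2 libraries of its group were below it. For Igfbp6 the log2 fold change was -0.51 (standard error 0.25, 95% interval -1.09 to 0.06; adjusted p 0.523 from limma). It was -0.75 without UIRI + BA replicate 3 and -0.27 without UIRI + BA replicate 1, and the reads numbered 32 to 158 per library.

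Igfbp1 encodes a binding protein known as a target of insulin and FoxO factors in liver. It lies beside Igfbp3 on chromosome 11, from 7197782 to 7202546. Normalized counts of Igfbp1 were 94.0, 68.6 and 90.4 with vehicle and 92.7, 85.1 and 119 with BA. The groups overlapped, and the log2 fold change was 0.23 (95% interval -0.20 to 0.66). With a library left out it lay between 0.086 and 0.33, on 61 to 165 reads per library.

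Igfbp3 encodes the main carrier of IGF1 in plasma, where it forms a complex with the acid-labile subunit. It read 2292, 2590 and 2288 with vehicle and 2265, 2980 and 2198 with BA, so that the UIRI libraries lay within the range of UIRI + BA. Igfbp3 had a log2 fold change of 0.04 (95% interval -0.23 to 0.31).

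Igfbp4, whose protein is the classic substrate of PAPP-A, lies on chromosome 11 from 99041244 to 99054392. It read 12648, 12825 and 9016 with vehicle and 9556, 12141 and 12197 with BA. A single library in each group, UIRI replicate 3 and UIRI + BA replicate 1, was low. Igfbp4 had a log2 fold change of -0.02 (95% interval -0.36 to 0.33), and its sign turned with quantile normalization.

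Igfbp5 encodes a binding protein that attaches to extracellular matrix. Its normalized counts were 2380, 2798 and 3307 with vehicle and 3322, 2838 and 2761 with BA. The groups overlapped, with UIRI replicate 1 below all libraries with BA, and the log2 fold change was 0.08 (95% interval -0.20 to 0.36). For Igfbp3, Igfbp4 and Igfbp5 the intervals reach no further than 0.36 on the log2 scale in either direction.

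**Figure D2:**
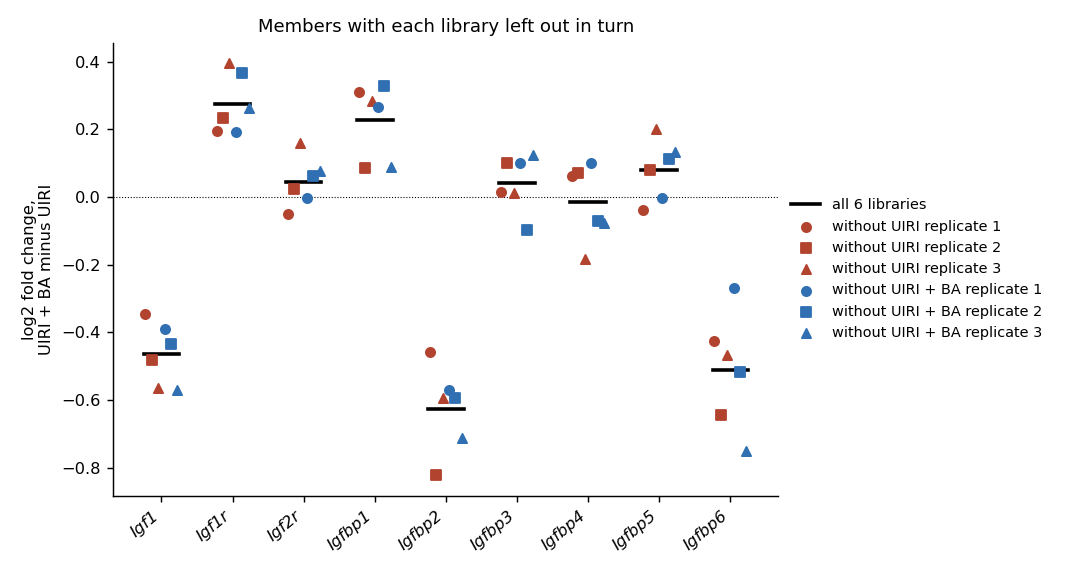
Log2 fold change (UIRI + BA minus UIRI, limma) of each member with all 6 libraries (black line) and with each library left out in turn (symbols). Igf1, Igfbp2 and Igfbp6 stay below 0 and Igf1r and Igfbp1 above 0 in all 6 fits, whereas the sign of Igf2r, Igfbp3, Igfbp4 and Igfbp5 turns in at least 1 of them.

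Levels of different genes were compared only per length, as normalized count per kilobase of merged exons in GENCODE release M21. In UIRI, Igfbp4 stood highest at 2603 ± 487 per kilobase (SD, n = 3), followed by Igfbp3 at 764 ± 55.4 and Igfbp5 at 471 ± 77.2. These were followed on the same scale by Igf1r at 217 ± 33.0, Igf1 at 211 ± 32.8 and Igf2r at 180 ± 27.1. The level per kilobase of Igfbp2 was 120.2 ± 29.5, of Igfbp6 73.7 ± 11.5 and of Igfbp1 55.3 ± 9.01. The libraries of Igf1r and Igf1 overlapped in UIRI, as did those of Igf1 and Igf2r and those of Igfbp6 and Igfbp1, and the other neighbours in the order were apart.

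In UIRI + BA the level of Igf1 was 153 ± 20.2 per kilobase (SD, n = 3), below Igf1r at 261 ± 30.9 and Igf2r at 185 ± 11.2, with no overlap between neighbours, although the nearest libraries of Igf2r and Igf1 differed by little. Igf1 and Igf2r thus changed places in the order, but with the length of the longest transcript in place of merged exons Igf1 stayed above Igf2r in both groups. Igfbp6 and Igfbp1 also changed places, at 52.9 ± 17.7 and 64.9 ± 11.7 per kilobase in UIRI + BA, where their libraries overlapped.

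Igfbp4 made up 63.3% ± 5.49 of the summed level per kilobase of Igfbp1 to Igfbp6 with vehicle and 63.2% ± 3.22 with BA (SD, n = 3 each). Igfbp3 gave 18.8% ± 1.66 and 19.6% ± 2.52, and Igfbp5 gave 11.7% ± 3.21 and 12.4% ± 2.53. The share of Igfbp2 was 2.98% ± 0.813 in UIRI and 1.90% ± 0.202 in UIRI + BA (two-sided exact permutation, p = 0.2). The summed level of the 6 binding protein genes was 4087 ± 439.7 per kilobase in UIRI and 4040 ± 387 in UIRI + BA (SD, n = 3; two-sided exact permutation, p = 0.8). Set against Igf1, this sum was 17.3, 21.5 and 19.6 times the level of Igf1 in UIRI and 26.3, 29.9 and 23.7 times in UIRI + BA. The groups did not overlap on this ratio, which was chosen after the values were seen (two-sided exact permutation, p = 0.1). Its log2 difference of 0.45 is close in size to that of Igf1 alone (-0.46), and the sum itself hardly differed. The ratio thus mostly restates the difference in Igf1 and is not a separate result.

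**Figure D3:**
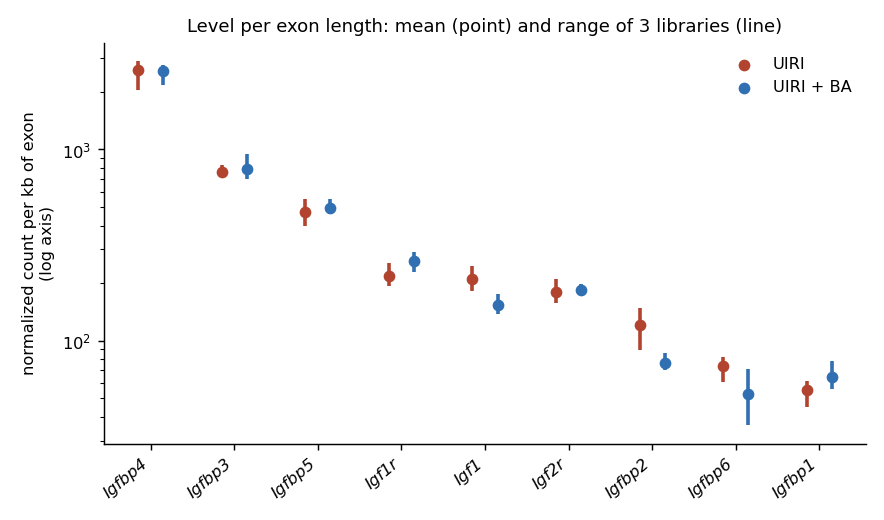
Normalized count per kilobase of merged exons (log axis) for the 9 members, ordered by their mean in UIRI. Points are means and lines span the 3 libraries of UIRI (red) and UIRI + BA (blue); Igfbp4 is highest in both groups, and Igf1 lies beside Igf1r in UIRI and apart from it in UIRI + BA.

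The tissue was bulk cortex, so fewer cells of a type and less RNA per cell cannot be told apart. Markers of cell types that could carry Igf1 were therefore set beside it. All 8 fibroblast markers had a log2 fold change below 0, and 5 of them had an unadjusted p below 0.05, beside 4.61% of all genes in that direction. Their summed normalized count was 92124 to 110733 in UIRI and 68165 to 89092 in UIRI + BA, with no overlap and a log2 difference of -0.40. The 6 macrophage markers also had log2 fold changes below 0, 2 of them with an unadjusted p below 0.05. Their sum ran from 24372 to 31760 in UIRI and from 22284 to 24268 in UIRI + BA, a log2 difference of -0.28. The marker sum that differed most with no overlap was that of proximal tubule, whose ranges are given above and whose log2 difference was 0.59. All 12 of its markers had log2 fold changes above 0, 10 of them with an unadjusted p below 0.05, beside 5.67% of all genes. It was higher with BA, as were Igf1r, Stc2 and Ghr in their means, and its part in those values was not tested.

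Divided by the summed fibroblast markers of the same library, Igf1 was 0.0221, 0.0220 and 0.0183 with vehicle and 0.0199, 0.0200 and 0.0195 with BA. On this ratio the groups overlapped, and the log2 difference was -0.061 (two-sided exact permutation, p = 0.4). The fibroblast sum adds normalized counts, so its most abundant markers weigh most, and its list holds the collagen genes Col1a1, Col1a2 and Col3a1. The ratio is therefore not a measure of Igf1 per fibroblast. Divided by the summed macrophage markers, Igf1 differed by -0.19 on the log2 scale, again with overlap (two-sided exact permutation, p = 0.4). Igfbp2 differed by -0.22 per fibroblast marker and by -0.35 per macrophage marker on the log2 scale, with overlap in both. Per summed collecting duct marker the log2 difference of Igfbp2 was -0.82 and the groups stayed apart (two-sided exact permutation, p = 0.1), and that of Igf1 was -0.65 with overlap. The collecting duct sum itself was 2114 to 2649 in UIRI and 2120 to 2964 in UIRI + BA.

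All 8 urothelium markers had log2 fold changes below 0, none with an unadjusted p below 0.05, and Krt14, Upk2 and Upk3a were at 0 in at least 1 library. The urothelium sum was 195, 175 and 687 with vehicle and 71.4, 79.7 and 422 with BA, so that replicate 3 was the highest in each group. Igf1, Igfbp2 and Igfbp6 were also highest in replicate 3 of UIRI + BA, but none of them was highest in replicate 3 of UIRI. Divided by the urothelium sum, Igf1, Igfbp2 and Igfbp6 had log2 differences of 0.63, 0.47 and 0.58. These lie above 0, unlike those of the genes themselves, and the groups overlapped on each ratio. For Igfbp6, the log2 difference was -0.12 per fibroblast marker and -0.24 per macrophage marker, with overlap in both. The part of these cell types in the values of Igf1, Igfbp2 and Igfbp6 was not tested beyond these ratios.

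**Figure D4:**
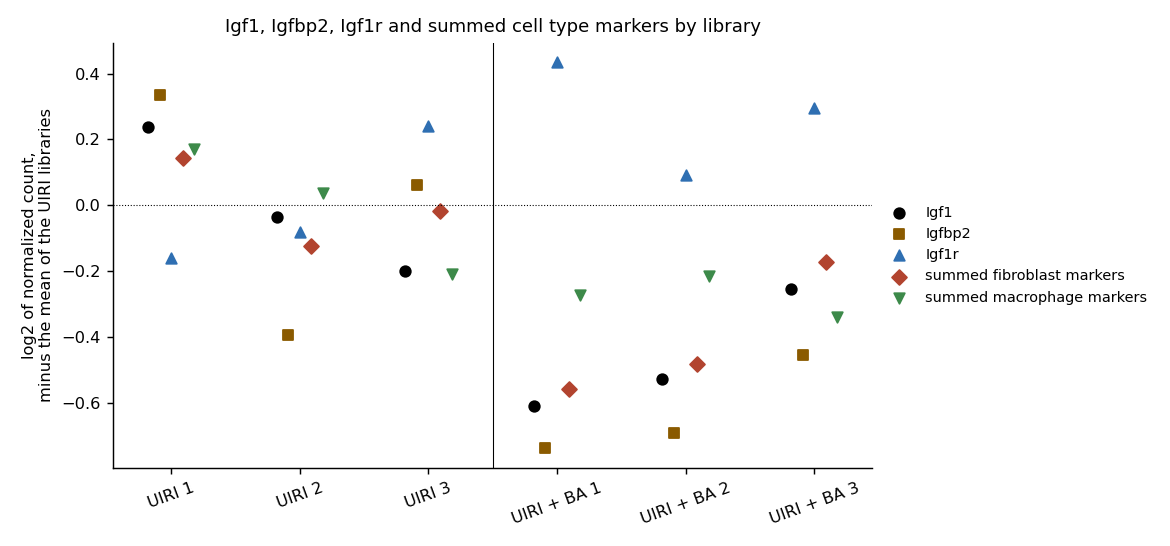
Log2 normalized count of Igf1, Igfbp2 and Igf1r and of the summed fibroblast and macrophage markers in each library, minus the mean of the UIRI libraries for that series. In the UIRI + BA libraries Igf1 lies close to the fibroblast sum and below 0, while Igf1r lies above 0. Between the UIRI libraries, the log2 ratio of Igf1 to the macrophage sum varied less (SD 0.071) than that to the fibroblast sum (SD 0.157). Between the UIRI + BA libraries it was the other way round (SD 0.236 and 0.020).

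The genes whose pattern over the 6 libraries was most like that of Igf1 were looked for among the 12648 genes that averaged 100 normalized counts or more. Likeness was the root mean square difference of log2 values centred on each gene's mean. The nearest was Tmem158, at 0.035, with normalized counts of 370, 298 and 271 with vehicle and 195, 208 and 268 with BA. Nnmt, which encodes nicotinamide N-methyltransferase, followed at 0.037 with 475, 377 and 325 with vehicle and 253, 276 and 317 with BA. Ang, an angiogenin gene with close copies in the mouse genome between which reads can be split, came next at 0.065. All 3 had their highest value in UIRI replicate 1 and, within UIRI + BA, their highest in replicate 3, as Igf1 did. For Igfbp2 the nearest genes were Susd4, at 0.10, and Slc14a1, a urea transporter gene, at 0.11. Cemip, which takes part in hyaluronan breakdown, came next for Igfbp2 at 0.12. These likenesses rest on 6 points, which are the same libraries for every gene.

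Other genes of the pathway came from 5 lists with 30 genes, of which 28 were in the table. Of the 28, 21 had log2 fold changes above 0 and 7 below, with a median of 0.084 beside -0.0053 over all genes. An adjusted p below 0.05 was found for 0 of the 28 with limma. By unadjusted p, 5 passed 0.05, all higher with BA, beside 10.3% of all genes in either direction and 5.67% higher. The groups did not overlap for 5 of the 28, all higher with BA, beside 14.4% of all genes in either direction and 7.45% higher. No direction was set beforehand, so the share in either direction is the one to compare. The count without overlap is near it. In the lists, the 5 with an unadjusted p below 0.05 were 2 of 7 genes for carriers and release of IGF, 1 of 6 for the growth hormone axis, 1 of 8 for the insulin receptor and its substrates, 1 of 3 for the Igf2 locus and mRNA binding, and 0 of 4 for the mannose 6-phosphate pathway.

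Stc2 encodes stanniocalcin-2, an inhibitor of PAPP-A. Its normalized count was 548, 655 and 642 with vehicle and 862, 865 and 836 with BA. The groups were far apart compared with their spread, at 615 ± 58.2 (SD, n = 3) and 854 ± 15.9 (SD, n = 3). The log2 fold change was 0.48 (standard error 0.09, 95% interval 0.27 to 0.69), with an adjusted p of 0.225 from limma, and Stc2 ranked 40 by p among all genes. DESeq2 on the recovered reads gave an adjusted p of 0.00911, where 1.49% of the genes with an adjusted p were below 0.05, and edgeR gave 0.251. Over all alternatives the adjusted p ran from 0.00911 to 1.00.

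Igfals, which encodes the acid-labile subunit of the plasma IGF complex, read 51.0, 77.6 and 47.1 with vehicle and 70.2, 100.2 and 81.4 with BA. The groups overlapped, and the log2 fold change was 0.53 (standard error 0.23, adjusted p 0.484 from limma), running from 0.39 to 0.75 with a library left out. Ghr, the growth hormone receptor gene, read 2372, 2531 and 2697 with vehicle and 2868, 2875 and 3186 with BA. Its groups did not overlap, and the log2 fold change was 0.23 (standard error 0.08, adjusted p 0.418 from limma).

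Irs2, which encodes a docking protein for the insulin and IGF1 receptors, read 587, 628 and 886 with vehicle and 899, 877 and 822 with BA. UIRI replicate 3 lay among the UIRI + BA libraries. The log2 fold change was 0.33 (adjusted p 0.486 from limma), and without UIRI replicate 3 it was 0.51 with an adjusted p of 0.0172 from limma. That fit gave an adjusted p below 0.05 to 5.02% of all genes. It was also the only 1 of the 6 fits with a library left out that gave Irs2 an unadjusted p below 0.05. Igf2bp1, whose product binds Igf2 and other mRNAs, read 28.3, 22.5 and 31.8 with vehicle and 50.1, 50.6 and 37.6 with BA. The groups of Igf2bp1 did not overlap, on 20 to 58 reads per library. Its log2 fold change was 0.72 (standard error 0.23, adjusted p 0.377 from limma).

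**Figure D5:**
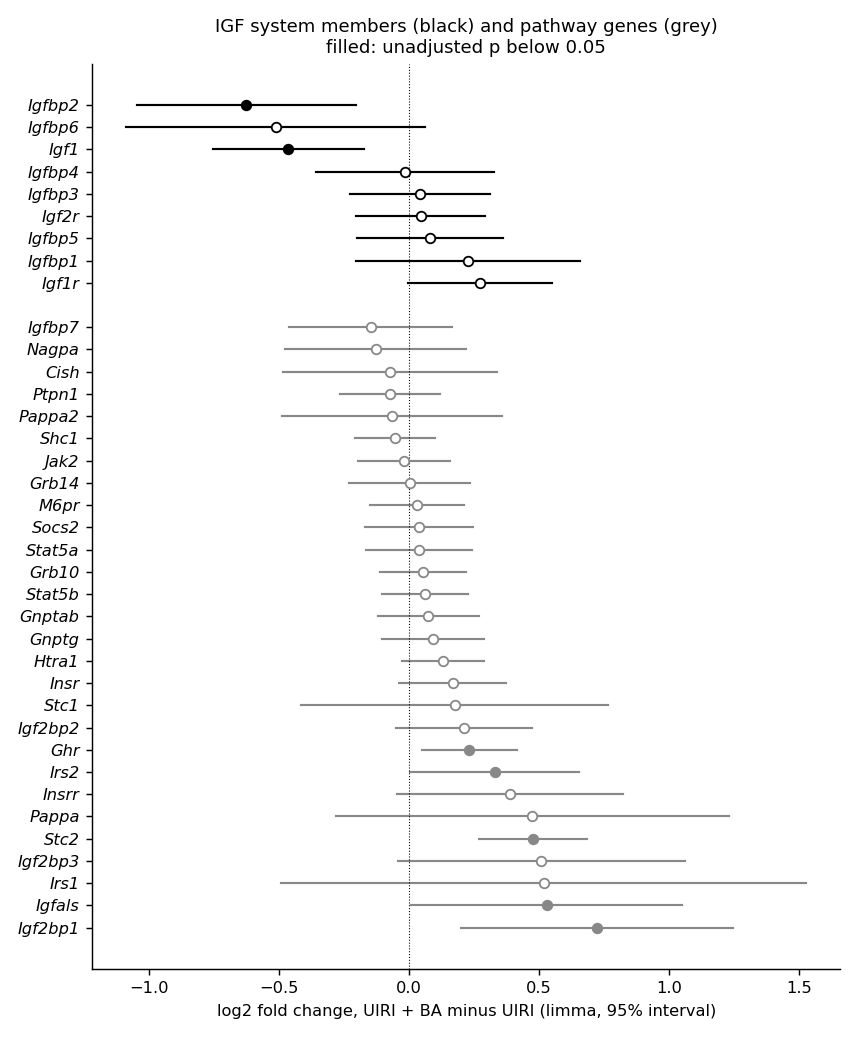
Log2 fold change (UIRI + BA minus UIRI, limma) with its 95% interval for the 9 members (black) and the 28 other pathway genes (grey), sorted within each set. Filled points have an unadjusted p below 0.05, which are Igf1 and Igfbp2 below 0 and Ghr, Irs2, Stc2, Igfals and Igf2bp1 above 0.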

How the data were processed

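RNA of renal cortex was sequenced by the authors as paired-end libraries after poly-T selection. Alignment by the authors used HISAT2, counting used FeatureCounts and their own comparison used DESeq2. The genome build is not given in the sources used here. The deposited values are a signal per gene and library, namely reads scaled by the size factor of each library. Within a tolerance of 0.001 read, 100% of values came out as whole reads, which were recovered. Columns of the authors' own fold changes and p-values, and their enrichment tables, were not used. Rows below 10 summed reads are not listed. All 6 libraries were used, grouped by their labels; 0 columns of values per library went unused.

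The main test was limma 3.58.1 (R 4.3.3) on log2 of the value plus 1 with an intensity trend, over all 19176 rows, without covariates, with Benjamini-Hochberg adjustment. edgeR 4.0.16 and DESeq2 1.42.0 were run on recovered reads as alternatives. Single values were compared with exact permutation tests, whose smallest p is 0.1. The study describes the libraries of each group as independent biological replicates, while the labels do not name the animals, and p-values measure the spread between these samples. Positions and lengths came by symbol from GENCODE release M21 (GRCm38), which held 98.2% of the symbols.

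In simulated counts for UIRI + BA against UIRI, limma recovered 82% of 100 genes changed by 1 on the log2 scale and 100% of 100 changed by 2, with 9 false calls among 19176 genes. The simulation used the same preset dispersion for every gene, not one estimated from these libraries, and changed only genes above a minimum mean count. It thus checked the code and does not give the power for the members, whose log2 differences were all smaller than 1. The members and lists were chosen with earlier results of these data known. Named genes were the members, pathway genes with an unadjusted p below 0.05, and the 3 genes nearest in pattern to Igf1 and to the next member by p, Igfbp2.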

Additional observations from a re-analysis of the deposited data

How the results depend on the processing

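Over all genes, limma gave 0 genes with an adjusted p below 0.05 and 1971 with an unadjusted p below 0.05. The former count was 6 with the replicate block, 213 with DESeq2 (1511 unadjusted) and 0 with edgeR (1703 unadjusted), and with a library left out it ran from 0 to 962, the latter without UIRI replicate 3. The unadjusted count ran from 808 to 4838 with a library left out, the latter again without UIRI replicate 3. Members with an adjusted p below 0.05 numbered 0 to 1 with a library left out, the 1 being Igf1 without UIRI replicate 3. Pathway genes with an adjusted p below 0.05 numbered 1 with DESeq2, which was Stc2, and 0 to 2 with a library left out. Pathway genes with an unadjusted p below 0.05 numbered 3 with upper quartile scaling, 3 with edgeR, and 2 to 9 with a library left out. The cause was not tested.

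The sign of the log2 fold change turned for Igf2r without UIRI replicate 1 (-0.050) or UIRI + BA replicate 1 (-0.0045), and for Igfbp3 without UIRI + BA replicate 2 (-0.097). It turned for Igfbp4 with quantile normalization (0.060) and without UIRI replicate 1 (0.062), UIRI replicate 2 (0.072) or UIRI + BA replicate 1 (0.10). It turned for Igfbp5 without UIRI replicate 1 (-0.038) or UIRI + BA replicate 1 (-0.0021). With a library left out the log2 fold change reached at most 0.16 for Igf2r, 0.12 for Igfbp3 and 0.20 for Igfbp5, and at least -0.18 for Igfbp4. Over the alternatives, 182 of 195 values for the 9 members and Igfals, Stc2, Ghr, Irs2 and Igf2bp1 kept their sign and their side of the adjusted threshold. No adjusted p of these genes was below 0.05 in the main fit, so keeping the side meant staying above it. The count therefore speaks mainly to the sign. DESeq2 gave Igf2bp1 no adjusted p, and that value was not counted.

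Replicate numbers are shared by the groups, and the main fit did not treat them as pairs. Deviations of same-numbered libraries correlated at -0.24, 0.30 and 0.15 over 17249 genes, and those of differently numbered libraries at -0.41 to 0.24. Whether libraries of the same number shared a batch was not tested. With the replicate block, Igf1 and Igfbp2 had adjusted p of 0.284 and 0.248 from limma, and the members with an unadjusted p below 0.05 were joined by Igf1r. Thinning UIRI replicate 3 to the median depth of the others, chosen after seeing the data, changed no call of a member. The share of Igfbp4 was 62.7% in both groups with the longest transcript, and with a library left out it ran from 61.5% to 66.5% in UIRI and from 61.6% to 64.8% in UIRI + BA. Igfbp1 and Igfbp6 rest on few reads (61 to 165 and 32 to 158 per library), and their 95% intervals include 0.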

Other observations

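Igfbp7, a binding protein relative with low affinity for IGF that was not among the members, was singled out after its values were seen. Its level was 28576 ± 3740.1 per kilobase of merged exons in UIRI and 25833 ± 3652 in UIRI + BA (SD, n = 3), above every member in both groups. Its normalized count read 37121, 37196 and 29327 with vehicle and 26152, 33402 and 34142 with BA. The low libraries, UIRI replicate 3 and UIRI + BA replicate 1, were the low libraries of Igfbp4 as well. The log2 fold change of Igfbp7 was -0.15 (standard error 0.14, adjusted p 0.709 from limma).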
